A study of Mus musculus with 13 samples.

Results

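The genes described here are 10 mouse genes of fatty acid uptake and oxidation, taken by symbol from a table of 23366 genes: Lpl, Cd36, Fabp3, Cpt1b, Cpt2, Acadvl, Acadl, Acadm, Hadha and Hadhb. All 10 symbols were found, and all 10 passed the filter on low counts that left 16537 genes for testing. RNA depleted of ribosomal RNA was sequenced from primary skeletal muscle cells of mixed strain background, isolated from the hind limbs of newborn pups at postnatal day 2 to 3. The 4 groups were dICR/dICR myotubes (2 libraries), wild-type myotubes (5), dICR/dICR myoblasts (2) and wild-type myoblasts (4). Myoblasts are the proliferating precursors, grown with serum and fibroblast growth factor, and myotubes are the cells after 24 hours in differentiation medium with 1% horse serum. The dICR/dICR cells carry on both chromosomes a deletion of the region that controls imprinting of Igf2 and H19, and the study asked how the resulting misexpression of these genes acts in muscle cells. Whether replicates came from separate cultures or animals is not in the labels, and a p-value here therefore measures only how these libraries spread, which may be technical.

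Muscle cells take up fatty acids that lipoprotein lipase releases from triglycerides, bind them in the cytosol and activate them to acyl-CoA. The carnitine shuttle moves long acyl chains into mitochondria, where acyl-CoA dehydrogenases of different chain-length preference and the trifunctional protein shorten them in the repeated cycle of beta-oxidation. Oxidative muscle draws much of its energy from this pathway, and many of its genes are known targets of peroxisome proliferator-activated and estrogen-related receptors.

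The libraries fell in a shallow set of 6 (total counts of 5.313 to 10.91 M, mega counts) and a deep set of 7 (35.56 to 56.44 M), divided at 20 M from the totals seen and not by any label. Both dICR/dICR myoblast libraries were shallow and both dICR/dICR myotube libraries were deep. Wild-type myotubes 1 to 3 and wild-type myoblasts 1 and 2 were deep, and wild-type myotubes 4 and 5 and wild-type myoblasts 3 and 4 were shallow. Between replicate counts, chi-square per degree of freedom was 4.67 for wild-type myoblasts 3 and 4. It was 21.9 for wild-type myotubes 4 and 5, 34.3 for the dICR/dICR myoblasts and 39.8 for wild-type myoblasts 1 and 2. Other replicate pairs were at 246 to 369. Fewer counts also lower this value. Comparisons within the shallow set rest on close pairs, and whether these share a culture or an animal is not in the labels. Small nucleolar RNA genes took 2.81 to 7.18% of the counts in shallow libraries and 0.028 to 0.177% in deep ones. The Y-linked gene Ddx3y was at 0.153 to 0.462 CPM in 4 libraries, the shallow ones of wild type, and at 14.5 to 176 CPM in the other 9. H19 was at 52.4 to 71.5 CPM in the 4 dICR/dICR libraries and at 2345 to 40495 CPM in the 9 wild-type libraries and so went with the genotype labels. CPM here is the count per mega counts of the library total multiplied by its TMM factor. The summed CPM of 6 myoblast markers was 1258 to 4862 and that of 7 myotube markers 1353 to 35282 across the libraries. In these bulk samples, fewer cells of a type and less RNA per cell cannot be told apart.

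Per kilobase of exon, the acyl-CoA dehydrogenase genes and Hadha stood above the uptake genes by median in both sets, while Hadhb stood with the uptake genes in the shallow set. The medians over the 6 shallow libraries were 87.6 CPM per kb for Acadvl, 56.4 for Hadha, 34.4 for Acadl, 28.4 for Acadm, 10.1 for Cpt2 and 3.92 for Hadhb. The uptake genes had shallow medians of 4.31 CPM per kb for Fabp3, 3.72 for Cd36 and 1.34 for Lpl. Over the 7 deep libraries the medians were 66.7 CPM per kb for Hadhb, 66.1 for Acadvl, 53.2 for Acadl, 46.4 for Hadha, 28.9 for Acadm, 13.4 for Cpt2, 11.1 for Fabp3, 4.96 for Lpl and 1.80 for Cd36. Neighbours in these orders had overlapping ranges, apart from Acadm and Cpt2 and the gene next above Cpt1b; an example of overlap is Hadhb (44.2 to 102 CPM per kb) and Acadvl (52.0 to 114 CPM per kb) in the deep set. Acadm was at 21.3 to 45.5 CPM per kb in shallow and 21.9 to 50.3 in deep libraries, and Cpt2 at 6.49 to 11.8 in shallow and 11.7 to 16.0 in deep libraries.

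Cpt1b, the muscle form of carnitine palmitoyltransferase 1, was close to absent. Its raw counts were 5 and 9 in dICR/dICR myotubes, 0, 0, 5, 6 and 5 in wild-type myotubes, 3 and 2 in dICR/dICR myoblasts, and 4, 0, 5 and 3 in wild-type myoblasts. No library exceeded 9 counts, so no fold change is given for it in the text. Per kb it made up 0 to 3.16% of the summed level of the Cpt1 isoform genes Cpt1a, Cpt1b and Cpt1c. Of its 2895 exon bases, 2744 (94.8%) are shared with the gene Gm44502 on the same strand, so its level is uncertain.

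**Figure D1:**
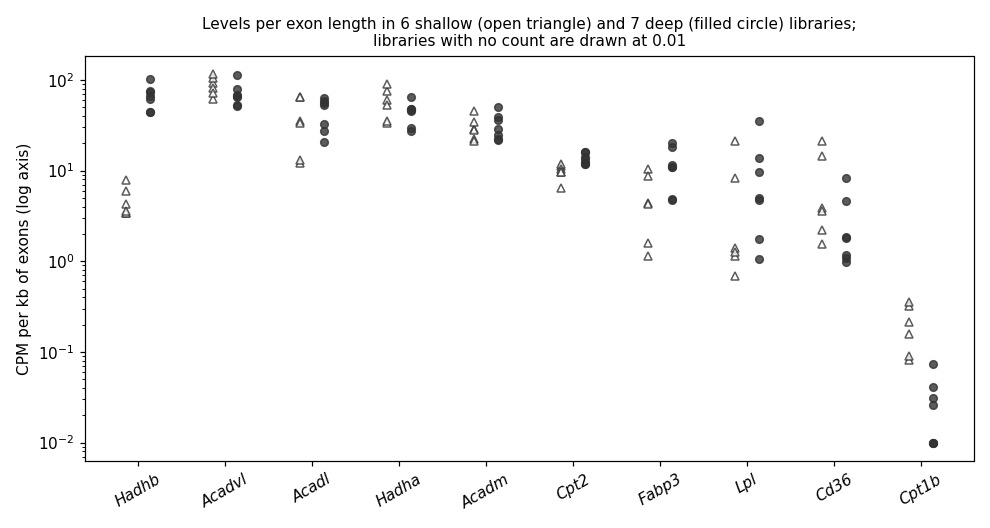
Level of each of the 10 genes in CPM per kb of exons (log axis), with open triangles for the 6 shallow and filled circles for the 7 deep libraries. Hadhb separates fully between the sets, at 3.38 to 7.83 CPM per kb in shallow libraries and 44.2 to 102 CPM per kb in deep ones, and Cpt1b lies below the other genes.

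Hadhb, the subunit of the trifunctional protein that carries the thiolase activity, differed most between the sets among the members other than Cpt1b. It was at 12.3 and 16.3 CPM in the shallow wild-type myotubes and 7.03 and 8.89 CPM in the shallow wild-type myoblasts. The deep libraries held 213, 128 and 158 CPM in wild-type myotubes and 91.9 and 91.9 CPM in wild-type myoblasts. Every shallow library lay below every deep one, the dICR/dICR libraries included, with 7.04 and 7.43 CPM in shallow dICR/dICR myoblasts and 154 and 139 CPM in deep dICR/dICR myotubes. How many of all genes separated the sets in this way was not counted. In wild type, with the stage label accounted for, the shallow minus deep log2 fold change was -3.54 ± 0.20 (SE), with an adjusted p of 8.87e-08 in edgeR's quasi-likelihood test. Of all genes tested, 2.05% had a lower value.

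Hadha encodes the partner subunit, which carries the hydratase and hydroxyacyl-CoA dehydrogenase activities of the same complex, and it differed between the sets in the opposite direction. Shallow wild-type libraries held 300 and 359 CPM in myotubes and 242 and 211 CPM in myoblasts, against 261, 186 and 190 CPM in deep myotubes and 119 and 108 CPM in deep myoblasts. The shallow libraries of each stage lay above the deep ones of that stage, a separation that was not counted over all genes. The log2 fold change was 0.81 ± 0.14 (adjusted p = 0.00146, edgeR quasi-likelihood), and 79.8% of all genes tested had a lower value. The ratio of Hadha to Hadhb per kb was 9.82 to 17.8 in the 6 shallow libraries and 0.608 to 0.755 in the 7 deep ones.

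Of the other genes, Cd36 (2.65 ± 0.25, adjusted p = 8.79e-06) and Acadvl (0.59 ± 0.18, adjusted p = 0.0277) were higher and Lpl (-1.99 ± 0.64, adjusted p = 0.0339) was lower in shallow wild-type libraries on the log2 scale, by edgeR's quasi-likelihood test. Cpt1b also passed, on counts of 9 or fewer, at 0.235 to 1.02 CPM in shallow and 0 to 0.214 CPM in deep libraries. It met the filter on low counts only through shallow libraries, so its pass is not counted. Hadhb, Hadha, Cd36, Acadvl and Lpl passed, beside 31.4% of all genes tested that were called. Fabp3, Cpt2, Acadm and Acadl did not pass, at -0.32, -0.31, 0.35 and 0.45. Which platform or preparation each library had was not given in the sources used here, and the part of either in these differences was not tested. Myotube markers summed to 9176 and 9767 CPM in shallow wild-type myoblasts, against 2153 and 2142 CPM in deep ones. The 8 cell cycle genes summed to 915 and 865 CPM, against 2427 and 2309 CPM. In wild-type myotubes both sums overlapped between the sets. The part of these sums, or of Ddx3y, which also split by set in wild type, was not tested either. Each comparison below is therefore made over all 13 libraries and again inside a single depth set where it can be.

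**Figure D2:**
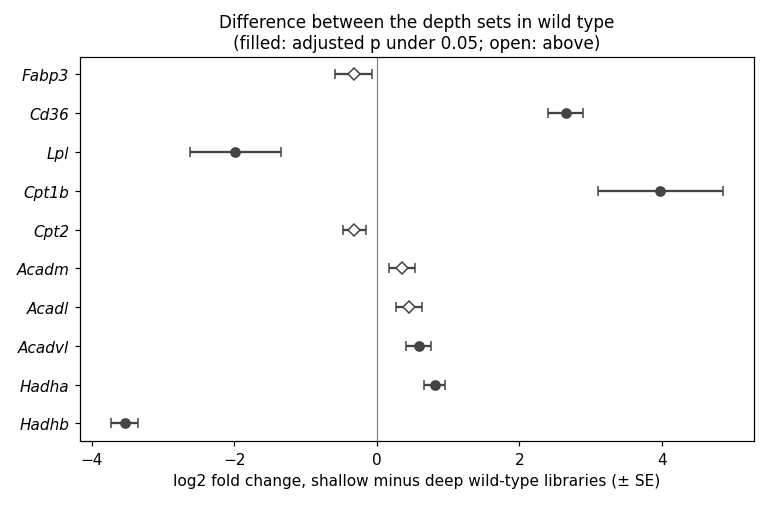
Log2 fold change of each gene between shallow and deep wild-type libraries (shallow minus deep, with SE bars), with filled circles for an adjusted p under 0.05 and open diamonds above it. Hadhb lies lowest at -3.54, and Cd36 (2.65) and Hadha (0.81) lie above 0.

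The promoter windows of Hadha and Hadhb, which are transcribed away from each other, share 228 bases of 300. The Hadhb window is shown because this pair of neighbouring genes moved in opposite directions between the sets, and Fabp3 and Acadl because they were the members called on differentiation. Each runs from 250 bases before to 50 after the start, from the RefSeq table for GRCm38.p6, which had 8 of the 10 members. Capitals mark matches on either strand to GGGCGG, the GC box.

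Hadhb, chr5:30155003-30155302, plus strand: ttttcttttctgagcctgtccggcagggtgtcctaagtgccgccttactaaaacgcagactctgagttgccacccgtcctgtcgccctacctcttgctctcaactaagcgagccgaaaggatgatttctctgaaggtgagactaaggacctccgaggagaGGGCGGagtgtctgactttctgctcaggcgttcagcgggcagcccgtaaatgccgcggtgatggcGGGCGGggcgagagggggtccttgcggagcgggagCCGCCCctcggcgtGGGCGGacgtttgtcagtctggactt

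Fabp3, chr4:130308488-130308787, plus strand: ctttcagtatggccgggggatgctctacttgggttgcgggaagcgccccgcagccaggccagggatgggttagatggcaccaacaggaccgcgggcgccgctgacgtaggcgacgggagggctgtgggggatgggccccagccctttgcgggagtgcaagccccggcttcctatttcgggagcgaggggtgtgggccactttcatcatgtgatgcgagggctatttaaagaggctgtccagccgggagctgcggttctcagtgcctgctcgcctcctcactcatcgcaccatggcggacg

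Acadl, chr1:66863260-66863559, minus strand: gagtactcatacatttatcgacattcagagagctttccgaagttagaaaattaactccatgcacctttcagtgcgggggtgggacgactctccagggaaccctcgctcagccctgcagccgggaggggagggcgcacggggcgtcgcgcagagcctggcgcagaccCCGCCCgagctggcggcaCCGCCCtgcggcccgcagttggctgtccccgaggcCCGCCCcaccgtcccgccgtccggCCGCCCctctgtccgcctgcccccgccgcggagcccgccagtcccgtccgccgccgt

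Of the 8 member windows, 5 held GGGCGG (Cd36, Cpt2, Acadl, Hadha and Hadhb), as did 35.7% of 32851 mouse promoter windows of the same length. The only match of Hadha, at -188, is the same site as the Hadhb match at -90, so these windows are not separate hits. AGGTCA, the core motif of many nuclear receptors, was in 3 (Cd36, Acadm and Acadvl), against 16.3% of all windows, and its extended form AAGGTCA, which contains it and is the form read by estrogen-related receptors, in 1 (Acadm), against 4.72%. CCAAT was in 1 window (Cd36), against 37.4%. No member window held the E-box CAGCTG of muscle regulatory factors, which was in 16.3% of all windows. The same was true of the other E-box, CACGTG, present in 7.15% of windows overall. The TATA box, searched as TATAAA, was in none of the 8 and in 13.6% of all windows, and a direct repeat of the receptor core motif with 1 spacer base was in none of the 8 and in 0.0396% of all windows. All motifs were searched on both strands.

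Lpl, which encodes lipoprotein lipase, had its highest values in dICR/dICR libraries at each stage. It was at 145 and 56.6 CPM in dICR/dICR myotubes, against 4.38, 39.5, 7.31, 5.23 and 2.85 CPM in wild-type myotubes. It was at 34.3 and 88.1 CPM in dICR/dICR myoblasts, against 19.3, 20.4, 4.69 and 5.82 CPM in wild-type myoblasts. Every dICR/dICR library lay above every wild-type library of its stage, wild-type myotube 2 being the nearest among myotubes.

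Cd36, a membrane protein that takes up long-chain fatty acids, differed between the depth sets within wild type. It was at 16.5 and 29.3 CPM in dICR/dICR myotubes, against 4.11, 6.36, 6.61, 51.3 and 74.1 CPM in wild-type myotubes. It was at 7.90 and 5.47 CPM in dICR/dICR myoblasts, against 3.49, 3.83, 13.6 and 12.7 CPM in wild-type myoblasts. The dICR/dICR values lay inside the wild-type range at both stages, between the deep and the shallow wild-type libraries.

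Fabp3, the cytosolic fatty acid-binding protein of heart and muscle, separated the stages. It was at 9.59 and 16.5 CPM in dICR/dICR myotubes, against 9.11, 9.11, 14.96, 8.62 and 7.13 CPM in wild-type myotubes. It was at 0.938 and 1.30 CPM in dICR/dICR myoblasts, against 4.05, 3.87, 3.58 and 3.52 CPM in wild-type myoblasts. Every myotube library lay above every myoblast library, and both dICR/dICR myoblast libraries lay below the 4 wild-type ones. Of its exon bases, 9.72% overlap Gm10570 and 9.84% overlap Zcchc17 on the opposite strand. Its share of the summed level per kb of the binding protein genes Fabp3, Fabp4 and Fabp5 was 8.84 and 33.4% in dICR/dICR myotubes and 23.2 to 82.3% in wild-type myotubes.

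Cpt2, the inner-membrane carnitine palmitoyltransferase, lay between 15.4 and 37.9 CPM over the 13 libraries. It was at 37.9 and 31.9 CPM in dICR/dICR myotubes, against 22.8 to 29.3 CPM in wild-type myotubes. It was at 15.4 and 22.7 CPM in dICR/dICR myoblasts, and the wild-type myoblasts at 26.9 to 37.6 CPM. The dICR/dICR libraries thus lay above the wild-type range in myotubes and below it in myoblasts.

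Acadl, the long-chain acyl-CoA dehydrogenase, was at 113 and 106 CPM in dICR/dICR myotubes, against 62.9, 122, 102, 126 and 123 CPM in wild-type myotubes. It was at 23.0 and 25.2 CPM in dICR/dICR myoblasts, against 52.2, 39.9, 67.1 and 64.8 CPM in wild-type myoblasts. Both dICR/dICR myoblast libraries lay below all others, and the genotypes overlapped in myotubes.

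Acadm, the medium-chain enzyme, averaged 88.3 ± 20.8 CPM in dICR/dICR myotubes (SD, n = 2), 69.8 ± 18.4 CPM in wild-type myotubes (n = 5), 44.6 ± 1.505 CPM in dICR/dICR myoblasts (n = 2) and 52.7 ± 6.60 CPM in wild-type myoblasts (n = 4). Acadvl, the very-long-chain enzyme, averaged 158 ± 20.3 CPM in dICR/dICR myotubes, 203 ± 55.0 CPM in wild-type myotubes, 144 ± 15.4 CPM in dICR/dICR myoblasts and 152 ± 44.7 CPM in wild-type myoblasts. The genotypes overlapped for Acadvl at both stages. Of the exon bases of Acadvl, 45% overlap Dvl2 on the opposite strand, so its counts are uncertain without a known strand setting. Hadha was at 181 and 190 CPM in dICR/dICR myotubes, against 186 to 359 CPM in wild-type myotubes, and at 134 and 141 CPM in dICR/dICR myoblasts, and the wild-type myoblasts at 108 to 242 CPM. The genotypes overlapped for Hadha at both stages.

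**Figure D3:**
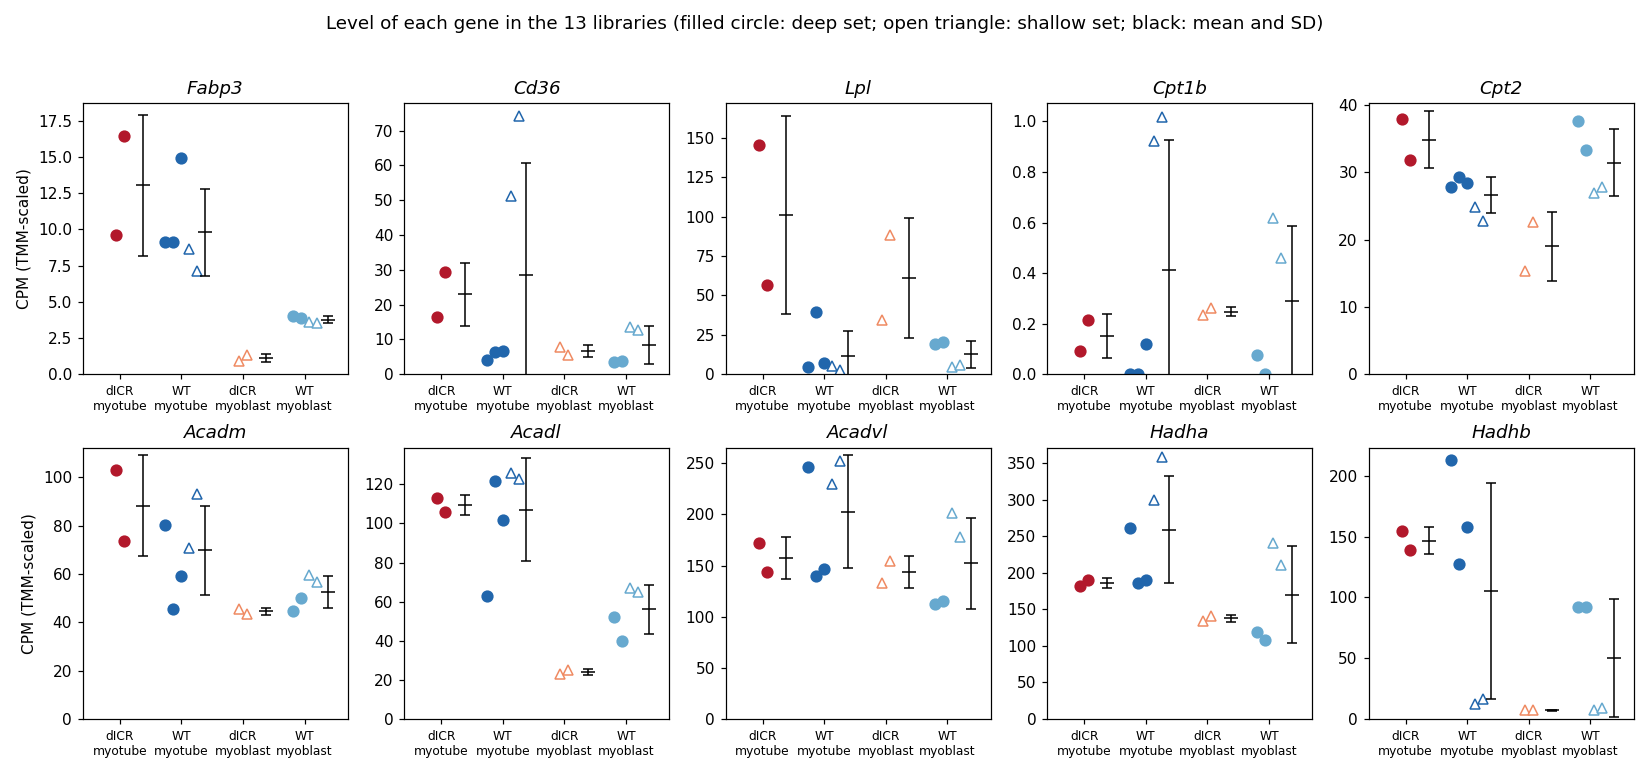
CPM of each gene in the 13 libraries, by group, with filled circles for deep and open triangles for shallow libraries and the group mean with SD in black (lower bars end at 0 where the SD exceeds the mean). Fabp3 and Acadl are lowest in dICR/dICR myoblasts, Lpl is highest in dICR/dICR cells of each stage, and the wild-type values of Hadhb and Cd36 split by depth set.

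On differentiation of wild-type cells, Fabp3 and Acadl rose, and no member was called lower. Fabp3 averaged 9.78 ± 3.00 CPM in wild-type myotubes (SD, n = 5) and 3.75 ± 0.247 CPM in wild-type myoblasts (n = 4). Its log2 fold change was 1.38 ± 0.28 (SE), with an adjusted p of 0.00613 in edgeR's quasi-likelihood test. Acadl averaged 107 ± 26.3 CPM in wild-type myotubes and 56.0 ± 12.6 CPM in wild-type myoblasts, with a log2 fold change of 0.93 ± 0.23 (adjusted p = 0.0155). The 2 of 10 members called stand beside 19.1% of all genes called, or 8.86% called higher. The median log2 fold change was 0.53 over the members and 0.02 over all genes tested, and 8 of 10 members had a positive value.

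The other members did not pass in wild type. Their log2 fold changes were 1.77 for Cd36, 1.07 for Hadhb, 0.61 for Hadha, 0.42 for Acadvl, 0.40 for Acadm, -0.08 for Lpl and -0.24 for Cpt2, with adjusted p-values between 0.160 and 0.962. The call of Fabp3 held when any of the 13 libraries was left out, and that of Acadl was lost without wild-type myoblast 1 or 2 (adjusted p up to 0.0541). Scaling by library size alone also ended the call of Acadl (0.67, adjusted p = 0.119). Only Fabp3 had all myotube libraries above all myoblast libraries, a separation that 9.07% of genes showed in that direction.

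Within the deep set, comparing 3 wild-type myotube with 2 wild-type myoblast libraries, 4 members rose: Fabp3 (1.48 ± 0.35, adjusted p = 0.00904), Acadl (1.05 ± 0.26, adjusted p = 0.0103), Hadha (0.90 ± 0.20, adjusted p = 0.00648) and Hadhb (0.85 ± 0.23, adjusted p = 0.0170) on the log2 scale, by edgeR's quasi-likelihood test. In that comparison 29.1% of genes were called, and 14.3% were called higher. With only these 2 groups of the deep set in the fit, Fabp3 and Hadha passed, and Acadl (adjusted p = 0.0679) and Hadhb (adjusted p = 0.0584) did not. Within the shallow set, with 2 libraries a group, Cd36 rose (2.25 ± 0.37, adjusted p = 0.00716), where 6.98% of genes were called. Fabp3 and Acadl were at 1.15 and 0.91 in the shallow set without passing (adjusted p = 0.102 and 0.0675), and Hadhb was at 0.84 (adjusted p = 0.0836). Cpt2 was negative in both sets without passing, at -0.31 in the deep (adjusted p = 0.273) and -0.20 in the shallow set (adjusted p = 0.672). The subunit genes Hadha and Hadhb thus had positive values within each set, although their levels between the sets differed in opposite directions.

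Markers of the stage and of other cells moved with wild-type differentiation. Myotube markers summed to 20309 to 35282 CPM in wild-type myotubes and 2142 to 9767 CPM in wild-type myoblasts, and 5 of 7 rose. The 6 myoblast markers summed to 3332 to 4862 CPM in wild-type myotubes and 1259 to 2654 CPM in wild-type myoblasts. Of these, 2 rose and 2 fell, so their sum did not mark the myoblast stage here. Cell cycle genes summed to 57.6 to 1090 CPM in wild-type myotubes and 865 to 2427 CPM in wild-type myoblasts, and 3 of 8 fell, with a median log2 fold change of -2.26. Macrophage and leukocyte markers summed to 3.20 to 14.3 CPM in wild-type myotubes and 4.22 to 5.06 CPM in wild-type myoblasts. Of the 6 tested, 1 rose and 1 fell over all libraries, and 5 rose and 1 fell within the deep set, where Emr1 and Ptprc had no counts in wild-type myoblasts. The part of these markers in the member values was not tested.

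In dICR/dICR cells, Fabp3 and Acadl again rose on differentiation. Fabp3 averaged 13.0 ± 4.86 CPM in dICR/dICR myotubes and 1.12 ± 0.258 CPM in dICR/dICR myoblasts (SD, n = 2 each), which is 3.55 ± 0.45 on the log2 scale (edgeR quasi-likelihood, adjusted p = 0.0149). Its raw counts in the dICR/dICR myoblasts were low, at 12 and 10. Acadl averaged 109 ± 5.04 CPM in dICR/dICR myotubes and 24.1 ± 1.53 CPM in dICR/dICR myoblasts, which is 2.19 ± 0.35 on the log2 scale (adjusted p = 0.0355). Across all genes 0.145% were called and 0.115% were called higher, and the median log2 fold change was 0.93 over the members and 0.00 over all genes. These myotubes were all deep and these myoblasts all shallow, so stage and depth set cannot be told apart within this genotype.

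The call of Fabp3 in dICR/dICR cells was lost without dICR/dICR myoblast 1, dICR/dICR myoblast 2 or dICR/dICR myotube 2 (adjusted p up to 0.169). The call of Acadl was kept without wild-type myotube 1 or 3 and lost without any of the other 11 libraries. Hadhb had the largest value of the members, at 4.34 ± 1.54 (adjusted p = 0.188), beside its difference of -3.54 between shallow and deep wild-type libraries. With the depth set as a term, whose size only wild type can give, Hadhb was at 0.80 (adjusted p = 0.129). In that fit Fabp3 (3.22), Cd36 (4.53), Acadl (2.63), Acadm (1.34) and Hadha (1.23) passed as higher, 5 of 10 members beside 7.63% of genes called and 4.8% called higher.

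The difference between the differentiation changes of the genotypes did not pass for any member, nor for any of the 16537 genes in edgeR's quasi-likelihood test (0%). At an unadjusted p under 0.05 there were 3 members and 1643 genes, DESeq2 called 0 members and 72 genes, and limma voom called 0 of either. The 3 members were Fabp3 (dICR/dICR change minus wild-type change 2.17 ± 0.51), Cpt2 (1.11 ± 0.32) and Acadl (1.25 ± 0.40), each with an adjusted p of 0.495. For Cpt2 the change was 0.88 in dICR/dICR cells, against -0.24 in wild type. With the depth set as a term, 0 of 10 members passed, and 0.0968% of genes did.

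Between genotypes in myotubes, no member passed over all libraries, and Lpl had the largest difference. Lpl averaged 101 ± 62.8 CPM in dICR/dICR myotubes (SD, n = 2) and 11.8 ± 15.5 CPM in wild-type myotubes (n = 5), which is 3.06 ± 0.88 on the log2 scale (edgeR quasi-likelihood, adjusted p = 0.126). Leaving out wild-type myotube 2 gave 4.28 with an adjusted p of 0.00273, while leaving out dICR/dICR myotube 1 gave 2.23 with an adjusted p of 0.918. With all libraries DESeq2 (adjusted p = 0.0189, among 1120 genes called) and limma voom (adjusted p = 0.0440, among 440) called Lpl. The adjusted test called 0.556% of genes. At an unadjusted p under 0.05 there were 1 member (Lpl) and 2773 of the 16537 genes, a smaller share of the members than of all genes. The other members lay between -0.48 for Hadha and 0.47 for Hadhb, leaving out Cpt1b for its low counts. The median was 0.19 over all 10 members and -0.06 over all genes. Lpl and Cpt2 were the 2 members with dICR/dICR libraries above all wild-type ones, as in 10.5% of genes, and none lay below, as in 8.76%.

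Within the deep set, with 2 dICR/dICR and 3 wild-type myotube libraries, Cd36 was higher in dICR/dICR myotubes, at 16.5 and 29.3 CPM against 4.11, 6.36 and 6.61 CPM in wild-type myotubes. Its log2 fold change was 2.00 ± 0.31 (adjusted p = 0.00788, edgeR quasi-likelihood), with 3.63% of genes called. Over all libraries the value was -0.30 ± 1.03, with the shallow wild-type myotubes at 51.3 and 74.1 CPM. The call was not made when the deep libraries were fitted alone (1.99, adjusted p = 0.0621), nor with only the 2 groups in the fit (1.99, adjusted p = 0.179). Lpl was at 2.57 ± 0.76 within the deep set (adjusted p = 0.0842), and the 7 remaining members other than Cpt1b lay between -0.19 and 0.52.

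Markers of the stages moved with this comparison. The summed level of 7 myotube markers was 8408 and 15329 CPM in dICR/dICR myotubes and 20309 to 35282 CPM in wild-type myotubes. The summed level of 8 cell cycle genes was 2175 and 1036 CPM in dICR/dICR myotubes and 57.6 to 1090 CPM in wild-type myotubes. The part of either in the values of Lpl and Cd36 was not tested. The markers of other cells that use Lpl or Cd36 were low: 7 adipocyte markers summed to 0.236 and 0.285 CPM in dICR/dICR myotubes and 0.0762 to 0.407 CPM in wild-type myotubes. The 7 endothelial markers summed to 4.07 and 2.02 CPM in dICR/dICR myotubes and 0.610 to 3.87 CPM in wild-type myotubes. Of the 7 adipocyte markers, 3 and 1 had no count in dICR/dICR myotubes 1 and 2, against 6, 4, 4, 5 and 5 in wild-type myotubes 1 to 5. Retn was at 0 in both dICR/dICR myotube libraries and Cidec at 0 in all wild-type myotube libraries. Adipoq was at 0.0545 and 0.0475 CPM in dICR/dICR myotubes. The 7 macrophage and leukocyte markers summed to 3.04 and 3.61 CPM in dICR/dICR myotubes and 3.20 to 14.3 CPM in wild-type myotubes. The 7 fibroblast and fibro-adipogenic markers summed to 243 and 106 CPM in dICR/dICR myotubes and 205 to 925 CPM in wild-type myotubes, the highest being wild-type myotube 2, which also had the most Lpl of the wild-type libraries.

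Between genotypes in myoblasts, no member passed over all libraries either, while Fabp3 and Acadl were lower in dICR/dICR myoblasts within the shallow set. Over all libraries Fabp3 was at -1.76 ± 0.40 (adjusted p = 0.142), Acadl at -1.22 ± 0.31 (adjusted p = 0.174), Cpt2 at -0.73 ± 0.24 (adjusted p = 0.270), Hadhb at -2.80 ± 1.35 (adjusted p = 0.430) and Lpl at 2.26 ± 0.94 (adjusted p = 0.376), by edgeR's quasi-likelihood test on the log2 scale. The adjusted test called 0.0302% of genes. At an unadjusted p under 0.05 there were 4 members (Fabp3, Acadl, Cpt2 and Lpl) and 2009 of the 16537 genes. DESeq2 called 2 members (Fabp3 and Acadl) among 464 genes, and limma voom 0 members among 9 genes. Fabp3, Cpt2 and Acadl had both dICR/dICR libraries below all 4 wild-type ones, as in 14.3% of genes, and Lpl above, as in 14.2%. Cd36, Acadm, Acadvl and Hadha lay between -0.31 and -0.08.

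Within the shallow set, with 2 libraries a group, Fabp3 was at 0.938 and 1.30 CPM in dICR/dICR myoblasts, against 3.58 and 3.52 CPM in wild-type myoblasts. Its raw counts there were low, at 12 and 10, against 29 and 23. The log2 fold change was -1.68 ± 0.44 (adjusted p = 0.0477, edgeR quasi-likelihood). Acadl was at 23.0 and 25.2 CPM in dICR/dICR myoblasts, against 67.1 and 64.8 CPM in wild-type myoblasts, with -1.46 ± 0.28 (adjusted p = 0.0160). The 2 of 10 members called stand beside 5.25% of all genes called and 3.31% called lower, and the median was -0.62 over the members and 0.01 over all genes. Hadha was at -0.72 ± 0.21 (adjusted p = 0.0752), Cd36 at -0.97 ± 0.36 (adjusted p = 0.144) and Lpl at 3.54 ± 0.95 (adjusted p = 0.0542). Hadhb, which over all libraries was at -2.80, was at -0.14 ± 0.28 within the set.

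The shallow myoblast comparison had 8 of 10 members with both dICR/dICR libraries below both wild-type ones, as in 29.8% of genes, and Lpl above, as in 30.7%. Cpt1b is among the 8, on 2 to 5 counts a library. When the shallow libraries were fitted alone, Lpl (3.57, adjusted p = 0.00511) passed as higher and Fabp3, Cd36, Acadl and Hadha as lower, where 2717 genes were called. With the depth set as a term, where 2.01% of genes were called, Lpl (3.58, adjusted p = 0.0397) and Acadl (-1.42, adjusted p = 0.0232) passed and Fabp3 did not (-1.58, adjusted p = 0.0647). The same libraries differed in stage markers: the summed level of 7 myotube markers was 2547 and 1353 CPM in dICR/dICR myoblasts, against 9176 and 9767 CPM in the shallow and 2153 and 2142 CPM in the deep wild-type myoblasts. Cell cycle genes summed to 1997 and 2036 CPM in dICR/dICR myoblasts, against 915 and 865 CPM in the shallow and 2427 and 2309 CPM in the deep wild-type myoblasts. Their part in the lower Fabp3 and Acadl was not tested. Ddx3y, at 14.5 and 63.1 CPM in dICR/dICR and 0.247 and 0.153 CPM in shallow wild-type myoblasts, cannot be told apart from genotype there.

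Adipocyte markers summed to 0.782 and 1.09 CPM in dICR/dICR myoblasts and 0.136 to 1.23 CPM in wild-type myoblasts. Endothelial markers summed to 3.91 to 4.30 CPM in dICR/dICR myoblasts and 2.22 to 6.41 CPM in wild-type myoblasts. Macrophage and leukocyte markers summed to 4.61 to 5.99 CPM in dICR/dICR myoblasts and 4.22 to 5.06 CPM in wild-type myoblasts, and fibroblast markers to 176 to 279 CPM in dICR/dICR myoblasts and 210 to 429 CPM in wild-type myoblasts. Within the shallow set, where Fabp3 and Acadl were called, the genotypes did not overlap in the endothelial, fibroblast and myoblast sums. The same held for the myotube and cell cycle sums given above. With 2 libraries a group this is common: of single genes, 29.8% lay fully below and 30.7% fully above in dICR/dICR myoblasts. Endothelial markers were at 4.30 and 3.91 CPM in dICR/dICR myoblasts, against 6.41 and 6.28 CPM in wild-type myoblasts, and fibroblast markers at 176 and 279 CPM, against 429 and 357 CPM in wild type. Myoblast markers, whose sum was higher in wild-type myotubes than in wild-type myoblasts, were at 1258 and 1355 CPM in dICR/dICR myoblasts. Shallow wild-type myoblasts held 2474 and 2654 CPM of them. The part of these in the calls was not tested. Adipocyte and macrophage sums overlapped between the genotypes in that set.

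**Figure D4:**
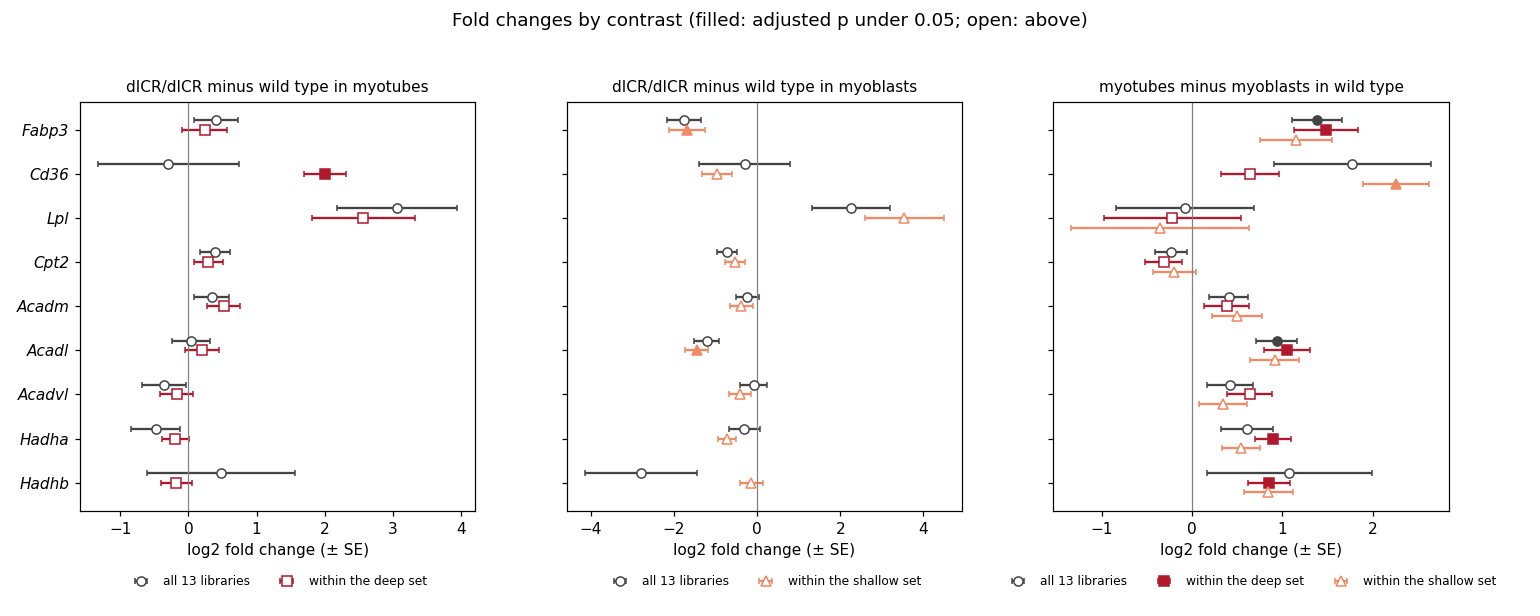
Log2 fold changes with SE bars for 9 members (Cpt1b left out for its low counts) between genotypes in myotubes and in myoblasts and between stages in wild type, over all 13 libraries and within a depth set, with filled symbols for an adjusted p under 0.05. Cd36 is at -0.30 over all libraries and 2.00 within the deep set in myotubes, and Fabp3 and Acadl are filled within the shallow set in myoblasts and over all libraries in wild-type differentiation.

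Another 72 genes of the pathway and its surroundings were read from 6 lists, and "rose" and "fell" below stand for an adjusted p under 0.05 in edgeR's quasi-likelihood test, with log2 fold changes in brackets. In wild-type differentiation, the list of uptake, binding and activation genes held 3 higher and 3 lower of 15 tested, beside 8.86% of all genes called higher and 10.2% called lower. Within the deep set, 29.1% of all genes were called in this comparison, a share to be read beside each list gene named there. The muscle caveolin gene Cav3 (2.64), and the acyl-CoA synthetase genes Acsl3 (2.24) and Acsl1 (1.16) rose. The fatty acid transport protein gene Slc27a1 (-2.06), the acyl-CoA synthetase gene Acsl5 (-1.02) and Angptl4 (-1.44), whose product inhibits lipoprotein lipase, fell. Acsl5 and Angptl4 were chosen after their values were seen. The call of Acsl1 was lost without any of 10 of the 13 libraries. The list median was -0.06, against 0.02 over all genes.

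Acsl3 was at 462, 382, 336, 444 and 901 CPM in wild-type myotubes, against 47.2, 43.2, 172 and 165 CPM in wild-type myoblasts. Slc27a1 was at 8.92, 12.4, 11.04, 12.5 and 15.3 CPM in wild-type myotubes, against 34.4, 38.7, 63.7 and 63.9 CPM in wild-type myoblasts. The stages did not overlap for either gene. Vldlr, the very-low-density lipoprotein receptor gene, rose within the deep set (2.59, adjusted p = 0.00325 in edgeR's quasi-likelihood test), and was at -0.32 within the shallow set.

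Of 8 carnitine shuttle and malonyl-CoA genes, Crat (0.98), the carnitine acetyltransferase gene, rose and Cpt1c (-1.83), the isoform gene known best from brain, fell over all wild-type libraries. Within the deep set, Slc25a20 (0.97), the carnitine-acylcarnitine carrier gene, rose and Acaca (-1.24), an acetyl-CoA carboxylase gene, fell. Cpt1a, the isoform gene known best from liver and added after its values were seen, was at -0.82 without passing (adjusted p = 0.0845). It was at 104 and 97.3 CPM in dICR/dICR myotubes and 24.9 to 103 CPM in wild-type myotubes, while Cpt1b never exceeded 1.02 CPM.

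None of 15 other mitochondrial beta-oxidation genes passed over all wild-type libraries, and their median was 0.08. Acadsb (0.86), the short/branched-chain acyl-CoA dehydrogenase gene, rose within the deep set. Of 8 peroxisomal genes, 2 rose and 0 fell over all wild-type libraries, beside 8.86% of all genes called higher. Within the deep set 3 rose and 1 fell, beside 14.3% of all genes called higher. Hsd17b4 (0.92) was among those that rose there and Ehhadh (-1.69) was the 1 that fell, both encoding multifunctional enzymes. Ehhadh was at 1.22 within the shallow set.

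Of 14 regulators, Prkaa2 (1.86), a catalytic subunit gene of AMP-activated kinase, and Esrrb (1.64), an estrogen-related receptor gene, rose over all wild-type libraries. The call of Prkaa2 was lost without wild-type myoblast 1 or 2, and that of Esrrb without wild-type myoblast 1, 2 or 3 or wild-type myotube 3 or 5. Within the deep set Esrrg (2.85), another estrogen-related receptor gene, rose and Prkaa1 (-0.58), the other catalytic subunit gene, fell. Prkaa1 was at 0.47 within the shallow set. Of 11 lipid storage and lipolysis genes, Mgll (2.58), the monoglyceride lipase gene, rose, and within the deep set Plin2 (-1.13), a lipid droplet coat gene, fell.

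Between genotypes, in dICR/dICR differentiation and in the difference between differentiation changes, none of the 71 genes tested from these lists passed over all libraries. Within the deep set of myotubes, Echs1 (1.22), the mitochondrial enoyl-CoA hydratase gene, was higher in dICR/dICR myotubes, at 82.1 and 49.0 CPM, against 38.4, 21.9 and 24.4 CPM in wild-type myotubes. Cav3 (-1.74) was lower, at 23.1 and 64.0 CPM in dICR/dICR myotubes, against 131, 169 and 136 CPM in wild-type myotubes. The genotypes did not overlap within the deep set for either gene, as was so for 15.3% of all genes with dICR/dICR above and 13.7% with dICR/dICR below, and 3.63% of genes were called.

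Within the shallow set of myoblasts, the list genes that passed were lower in dICR/dICR myoblasts and none was higher, where 5.25% of all genes were called and 3.31% were called lower. In the carnitine and malonyl-CoA list they were Acacb (-2.75), an acetyl-CoA carboxylase gene of muscle, Mlycd (-2.15), which encodes malonyl-CoA decarboxylase, and Cpt1c (-1.32), 3 of 8. In the uptake list they were Cav3 (-2.33), Slc27a1 (-1.03) and Slc27a4 (-0.87), 3 of 15. Acaa1a (-1.54), a peroxisomal thiolase gene, was 1 of 2 lower among 8 peroxisomal genes. Lpin1 (-1.68), a lipid phosphatase and coactivator gene, was 1 of 14 regulators. Mlycd was at 10.5 and 5.86 CPM in dICR/dICR myoblasts, against 34.8 and 38.6 CPM in shallow and 12.4 and 15.9 CPM in deep wild-type myoblasts. No gene of the other mitochondrial list (0 of 15) or of the storage list (0 of 11) passed there.

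As a description over the 13 libraries, which share batch and depth differences, Acadvl and Hadha varied together most among the 45 member pairs (Pearson r of log2 CPM 0.93), followed by Fabp3 and Acadl (0.89). Acadvl and Hadha had r of 0.98 in the 6 shallow and 0.89 in the 7 deep libraries, and Fabp3 and Acadl 0.99 and 0.83. Hadha and Hadhb had r of -0.16 over all 13 libraries, but 0.84 in the shallow and 0.96 in the deep ones. Lpl had r from -0.91 to -0.555 with every other member in the shallow libraries, and from -0.28 to 0.68 in the deep ones.

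The genes most like each member over the 13 libraries were Tmem41b (0.99) and Zbed4 (0.99) for Hadhb, Acss2 (0.97) and Ric8 (0.97) for Hadha, and Mlec (0.96) for Acadvl. They were Ptpla (0.96) and Tob1 (0.96) for Fabp3, Stim1 (0.96) and Ppp1r3a (0.95) for Cd36, and Stxbp5 (0.95) and Tmem39a (0.94) for Lpl. They were Cbr1 (0.94) and Fth1 (0.92) for Cpt2, Gamt (0.94) and Adssl1 (0.94) for Acadl, and Uqcrc2 (0.92) and Fbxo8 (0.90) for Acadm. For Cpt1b, Qrich2 (0.96) and Cldn19 (0.95) were nearest, on counts of 9 or fewer for Cpt1b.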

How the data were processed

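RNA-seq counts per gene were analysed for 13 libraries. The authors deposited raw counts. Per the submitters' processing notes they used TopHat2, HTSeq and mm9, with versions and the strand setting not given in the sources used here. Per the labels' protocols, libraries came from 2 sequencing platforms, with no platform named for a library. Library totals were 5.313 to 56.44 M (mega) counts, so counting error was larger in the shallow libraries. Genes were filtered with edgeR 4.0.16 (minimum count 10, minimum total 15) in R 4.3.3, and 16537 of 23366 were tested by quasi-likelihood with TMM factors, 4 group means over all 13 libraries and Benjamini-Hochberg adjustment at 0.05. The SE is the log2 fold change divided by the root of F. Values within a depth set came from 6 means, for group and set, over all 13 libraries, a fit chosen after seeing the data. DESeq2 1.42.0, limma 3.58.1 (voom), other scalings, no filter, the set as a term, single sets and leave-one-out fits were alternatives. Exon lengths came from a GRCm38 annotation, so no mm9 coordinates are given. All 10 members were named, and of the other lists at most 5 genes per list and comparison with the smallest p among those past the threshold. Some genes that these rules select are not reported here. Log2 CPM used a prior count of 2. The members, lists and tests were chosen with earlier results of these data known. The fits were tested on simulated data.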

Additional observations from a re-analysis of the deposited data

Results flagged for a closer look

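Among the 20 sets of 4 or 5 wild-type libraries examined, 1 for each member and stage, 2 held a library far from the others. The rule flags about 1 in 20 by chance in a single uniform group. These sets pool deep and shallow libraries, so that rate does not hold for them. A gene whose wild-type myoblasts split by depth set would not be flagged. Fabp3 was at 14.96 CPM in wild-type myotube 3, against 7.13 to 9.11 CPM in the other wild-type myotubes. Lpl was at 39.5 CPM in wild-type myotube 2, against 2.85 to 7.31 CPM in the other wild-type myotubes. The same library held the highest fibroblast marker sum (925 CPM) and the highest cell cycle sum (1090 CPM) of the wild-type myotubes, and the part of either in its Lpl level was not tested.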

How the results depend on the processing

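Calls depended on how the depth sets entered. Genes called between genotypes in myotubes numbered 92, and 1120 with DESeq2, 440 with voom, 425 with the set as a term, 601 within the deep set, 1 with only the groups compared and 3 with only those groups in the deep set. In myoblasts they numbered 5, and 3 with RLE factors, 1 with no filter, 464 with DESeq2, 9 with voom, 333 with the set as a term, 2717 with the shallow libraries alone, 868 within the shallow set, 0 with only the groups compared and 2934 with only those groups in the shallow set. In wild-type differentiation they numbered 3158, and 5267 with the set as a term, 4804 within the deep and 1154 within the shallow set. By library size alone there were 3604, and in the deep libraries alone 3318. With only the 2 groups compared there were 2916 in the deep and 3782 in the shallow set. In dICR/dICR differentiation they numbered 24, and 31 with RLE factors, 22 by library size alone, 41 with no filter and 1199 with DESeq2. There were 98 with voom, 1262 with the set as a term and 2002 with only the groups compared. For the difference between them, 0 became 72 with DESeq2 and 16 with the set as a term.

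Members called in myotubes were 0, and 1 with DESeq2, voom or within the deep set. In myoblasts they were 0, and 2 with DESeq2, the set as a term or within the shallow set, 5 with the shallow libraries alone and 4 with only the 2 groups of that set. In wild-type differentiation they were 2, and 1 by library size alone (Acadl lost), 5 with the set as a term, 4 in the deep libraries alone or within the deep set, 2 with only the 2 groups of the deep set, 1 within the shallow set and 4 with only the 2 groups of the shallow set. In dICR/dICR differentiation they were 2, and 1 with RLE factors or library size alone, 4 with DESeq2, 5 with the set as a term and 4 with only the groups compared.

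Leaving out each library gave 1 to 919 genes in myotubes, 0 to 6 in myoblasts, 1769 to 3574 in wild-type and 0 to 78 in dICR/dICR differentiation, and 0 to 0 for the difference. Members called then ranged over 0 to 1, 0 to 0, 1 to 2, 0 to 2 and 0 to 0. The count of genes in myotubes was highest, 919, without wild-type myotube 2.

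Signs turned as follows. Between genotypes in myotubes Acadl was at -0.0465 with RLE factors and -0.0454 with DESeq2, and Cd36 at 1.19 with voom, 1.68 with the set as a term, 1.99 in the deep libraries alone, 2.00 within the deep set and 1.99 with its 2 groups only. Hadhb was at -0.18 with the set as a term, -0.19 in the deep libraries alone, -0.18 within the deep set and -0.20 with its 2 groups only. In myoblasts Acadvl was at 0.0063 with RLE factors, 0.0328 by library size and 0.0071 with DESeq2, and Cd36 at 0.38 with voom. In dICR/dICR differentiation Acadvl was at -8e-04 with RLE factors, -0.16 by library size and -7e-04 with DESeq2, and Lpl at -1.26 with the set as a term. In wild-type differentiation Prkaa1 was at 0.49 in the shallow libraries alone, 0.47 within the set and 0.48 with its 2 groups only, Vldlr at -0.29, -0.32 and -0.30, and Ehhadh at 1.22 within the shallow set. Without single libraries, values ranged in myotubes from -0.15 to 0.10 for Acadl, -0.78 to 0.43 for Cd36 and -0.0365 to 0.74 for Fabp3. They ranged in myoblasts from -0.20 to 0.0922 for Acadvl and -0.59 to 0.0554 for Cd36. They ranged in dICR/dICR differentiation from -0.0092 to 0.255 for Acadvl and -0.12 to 1.56 for Lpl, and in wild-type differentiation from -1.30 to 0.26 for Lpl and -0.34 to 0.0648 for Prkaa1. The cause was not tested.

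The labels give no source for the replicate numbers. Deviations from group means, which still hold the depth set, correlated at -0.50 to 0.69 between same-numbered libraries, so whether the numbers pair the libraries is not settled by them. With the replicate number as a block, genes called were 3 in myotubes, 0 in myoblasts, 3063 on differentiation of wild-type cells and 100 of dICR/dICR cells, and members called were 0, 0, 2 and 2. Under the block Cd36 was at 2.12 and Hadhb at -0.56 in myotubes, Acadvl at 0.14, Cd36 at 0.90 and Hadha at 0.0422 in myoblasts, and Lpl at 0.0372 in wild-type differentiation. The dICR/dICR groups held 2 libraries each and the shallow libraries 5.313 to 10.91 M (mega) counts, which limits the precision of what was compared.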
